A study of Mus musculus with 58 samples.

Results

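Oncostatin M receptor (Osmr), gp130 (Il6st), leukaemia inhibitory factor receptor (Lifr), the interleukin-6 receptor alpha chain (Il6ra), the interleukin-11 receptor alpha chain (Il11ra1) and the transcription factor Stat3 were followed through all RNA-seq libraries of a study of caloric restriction (CR) in mouse hematopoietic stem cells (HSCs). The 6 genes were taken by symbol from the 55376 genes of each count file, and all 6 were present. HSCs of C57BL/6 J male mice were sorted as LSK CD34- Flk2- CD150+ cells. Old animals (24 to 26 months) were fed ad libitum (OAL, 4 libraries), kept on lifelong 40% CR (OCR, 4 libraries) or refed ad libitum for 4 weeks after lifelong CR (OCRRF, 2 libraries). Young animals (3 to 4 months) were fed ad libitum (YAL), restricted by 20% for the first week and by 40% for 3 weeks (YCR) or refed for 4 weeks after that restriction (YCRRF), with 4 libraries in each group. All of these mice carried the wild-type genotype.

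In the transplant arm, aged HSCs from ad libitum mice were infected with a GFP-labelled shRNA against Kdr (GFP_Kdr, 4 libraries) or its scramble (GFP_Scramble, 2 libraries), or with the Kdr shRNA together with an mCherry-labelled shRNA against Bmpr1a (Double_KdrBmpr, 4 libraries) or both scrambles (Double_Scramble, 2 libraries). Of the 4 Double_KdrBmpr libraries, 2 carried Bmpr1a shRNA1 and 2 carried shRNA2. About 500 cultured HSCs, infected and uninfected together, were given to lethally irradiated recipients without sorting on the labels first, and donor HSCs were later recovered as LSK CD48- CD150+ CD45.2+ cells. The library kit and sequencer differed from those of the diet libraries, so levels of the 2 arms are only placed side by side. Chromatin files of old HSCs held ATAC-seq of OCR (4 libraries) and OCRRF (2), H3K4me3 and H3K27me3 at promoters of OCR (2 each), and PU.1 peaks of OAL, OCR and OCRRF (2 each).

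The receptors work in combinations. gp130 is the signal-transducing chain that the whole cytokine family shares. Osmr pairs with gp130 to bind oncostatin M, and Lifr pairs with it to bind leukaemia inhibitory factor. Il6ra and Il11ra1 bind interleukin-6 and interleukin-11 and have no signalling tail of their own, so that gp130 carries their signal. Janus kinases bound to the receptors then phosphorylate Stat3, which enters the nucleus, and proteins of the SOCS family, themselves induced by STAT factors, close the loop. In blood formation the family is known for its part in stress responses, megakaryocyte and platelet production and myeloid output. Osmr is also a gene that the study itself singled out, as a member of an aging signature defined in earlier work and as lowered by lifelong CR in these same libraries, so its response to CR here is not independent of that choice.

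Total counts were between 11102898 and 36579392 in the 22 diet libraries and between 35657999 and 44780217 in the 12 transplant libraries. The 10 old libraries detected 42071 to 46646 genes and the 12 young libraries 22209 to 33496, so age and this difference between libraries cannot be told apart. The labels do not say whether libraries of a group came from separate mice, and p-values therefore measure the spread between libraries. No pair of the 45 compared libraries within a group was alike enough to be 1 library deposited again. YCRRF replicate 3 differed most from its group. The chi-square per degree of freedom of its counts was 153 to 336 against the other YCRRF libraries. Among those it was 28.4 to 56.4.

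Stretches of the genome that the results turn on are shown first. The promoter of Osmr (250 bases before to 50 after the RefSeq start, GRCm38.p6, minus strand, chr15:6874264-6874563) and the promoter of Lifr (plus strand, chr15:7129322-7129621) were chosen because these receptors differed most between old and young HSCs. The central 300 bases of an ATAC peak upstream of Osmr (plus strand, chr15:6882120-6882419, intergenic, its midpoint at -7956 bp from the Osmr start) are shown because its accessibility had the smallest p among the Osmr peaks, a choice made after its values were seen. Capitals mark GAGGAA and GGAAGT, which are core letters of PU.1 and other ETS sites, on either strand. The STAT motif TTCNNNGAA was also searched on both strands and occurred in none of the 3 stretches.
Osmr promoter: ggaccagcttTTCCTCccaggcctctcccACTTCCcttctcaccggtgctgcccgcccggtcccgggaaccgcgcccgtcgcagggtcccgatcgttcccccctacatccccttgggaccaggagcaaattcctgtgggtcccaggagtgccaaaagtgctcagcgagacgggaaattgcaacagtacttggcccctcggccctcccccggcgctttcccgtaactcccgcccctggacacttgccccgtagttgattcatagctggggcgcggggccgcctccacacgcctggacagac
Lifr promoter: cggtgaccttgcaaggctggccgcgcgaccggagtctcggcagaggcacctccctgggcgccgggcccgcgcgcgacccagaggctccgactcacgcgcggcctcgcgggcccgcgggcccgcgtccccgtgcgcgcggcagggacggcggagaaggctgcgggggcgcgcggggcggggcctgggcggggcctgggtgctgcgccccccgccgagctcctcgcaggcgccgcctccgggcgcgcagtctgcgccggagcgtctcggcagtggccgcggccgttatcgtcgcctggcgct
Osmr upstream peak, centre: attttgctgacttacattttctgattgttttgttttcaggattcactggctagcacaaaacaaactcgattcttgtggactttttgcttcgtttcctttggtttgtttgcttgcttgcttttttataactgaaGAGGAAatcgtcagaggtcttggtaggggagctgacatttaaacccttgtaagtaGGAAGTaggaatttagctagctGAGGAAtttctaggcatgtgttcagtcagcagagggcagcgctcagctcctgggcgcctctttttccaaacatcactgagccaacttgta
The Osmr promoter was 66% G and C with 22 CpG dinucleotides, and the Lifr promoter 81.3% with 53. GAGGAA occurred in 28.3% and GGAAGT in 23.8% of the 32851 promoters of this length, and the STAT motif in 8.3%. Among the central 300 bases of all 131918 ATAC peaks the shares were 37.2%, 32.4% and 9.51%. A match describes letters only.

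The 3 PU.1 peak loci found at the 6 genes are shown for the same reason, as the summit of the OCR replicate 1 peak with 75 bases on each side on the plus strand. P1 (chr15:7085192-7085342) was intergenic, at -44305 bp from the nearest Lifr RefSeq start. It lay within the 10 kb before the Lifr gene as annotated by GENCODE, which starts further upstream, at chr15:7090614. P2 (chr15:7132820-7132970) was in an intron of Lifr and P3 (chr3:89887584-89887734) in an intron of Il6ra.
PU.1 peak P1: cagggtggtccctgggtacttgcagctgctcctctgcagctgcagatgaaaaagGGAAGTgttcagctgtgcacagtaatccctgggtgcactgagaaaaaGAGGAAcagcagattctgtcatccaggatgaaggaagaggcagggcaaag
PU.1 peak P2: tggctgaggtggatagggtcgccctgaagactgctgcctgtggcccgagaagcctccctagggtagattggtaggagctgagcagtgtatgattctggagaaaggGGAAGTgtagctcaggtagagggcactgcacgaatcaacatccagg
PU.1 peak P3: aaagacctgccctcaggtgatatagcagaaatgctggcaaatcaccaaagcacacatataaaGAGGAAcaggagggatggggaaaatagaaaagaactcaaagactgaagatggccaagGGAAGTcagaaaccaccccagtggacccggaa
All 3 held GGAAGT, as did 70.2% of the 5441 PU.1 summits of that library, and P1 and P3 also held GAGGAA, as did 57.3% of them.

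Lifelong CR lowered Osmr, and none of the other 5 genes passed the test. Levels are given as CPM, counts scaled by library size and TMM factors, and a call needed an adjusted p below 0.05 by edgeR's quasi-likelihood test with Benjamini-Hochberg adjustment over all genes and a fold change above 1.2. By this rule 5.57% of the 27150 genes tested were called between OCR and OAL. Osmr stood at 33.5, 32.5, 25.6 and 29.4 CPM in the 4 OAL libraries and at 13.8, 15.3, 17.1 and 16.4 CPM in the 4 OCR libraries. The lowest OAL library was above the highest OCR library. The mean fell from 30.2 ± 3.53 to 15.7 ± 1.46 CPM (SD, n = 4 each), a log2 change of -0.93 (SE 0.114, adjusted p = 1.53e-06 by edgeR). It was called in all 13 alternatives, with log2 values from -1.01 to -0.88 when 1 library was left out. In these sorted bulk samples fewer cells that express Osmr and less Osmr RNA per cell cannot be told apart.

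The other chains moved little. gp130, the shared chain, was at 86.3 to 102 CPM in OAL and 74.3 to 98.2 CPM in OCR, ranges that overlapped (log2 -0.15, 95% interval -0.32 to 0.03, adjusted p = 0.476 by edgeR for Il6st). Il11ra1 was at 116 to 131 CPM in OAL and 100 to 109 CPM in OCR, and although these ranges did not overlap the difference was not called (log2 -0.21, SE 0.0781, adjusted p = 0.142). Il6ra was at 11.5 to 13.0 CPM in OAL and 8.99 to 12.4 CPM in OCR (log2 -0.25, adjusted p = 0.397). Stat3 was at 461 to 512 CPM in OAL and 388 to 465 CPM in OCR (log2 -0.15, adjusted p = 0.402), and Lifr at 1.15 to 1.95 CPM and 1.55 to 2.58 CPM (log2 0.41, adjusted p = 0.519). Leaving out the called gene, 1 of the other 5 had an unadjusted p below 0.05, namely Il11ra1.

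**Figure D1:**
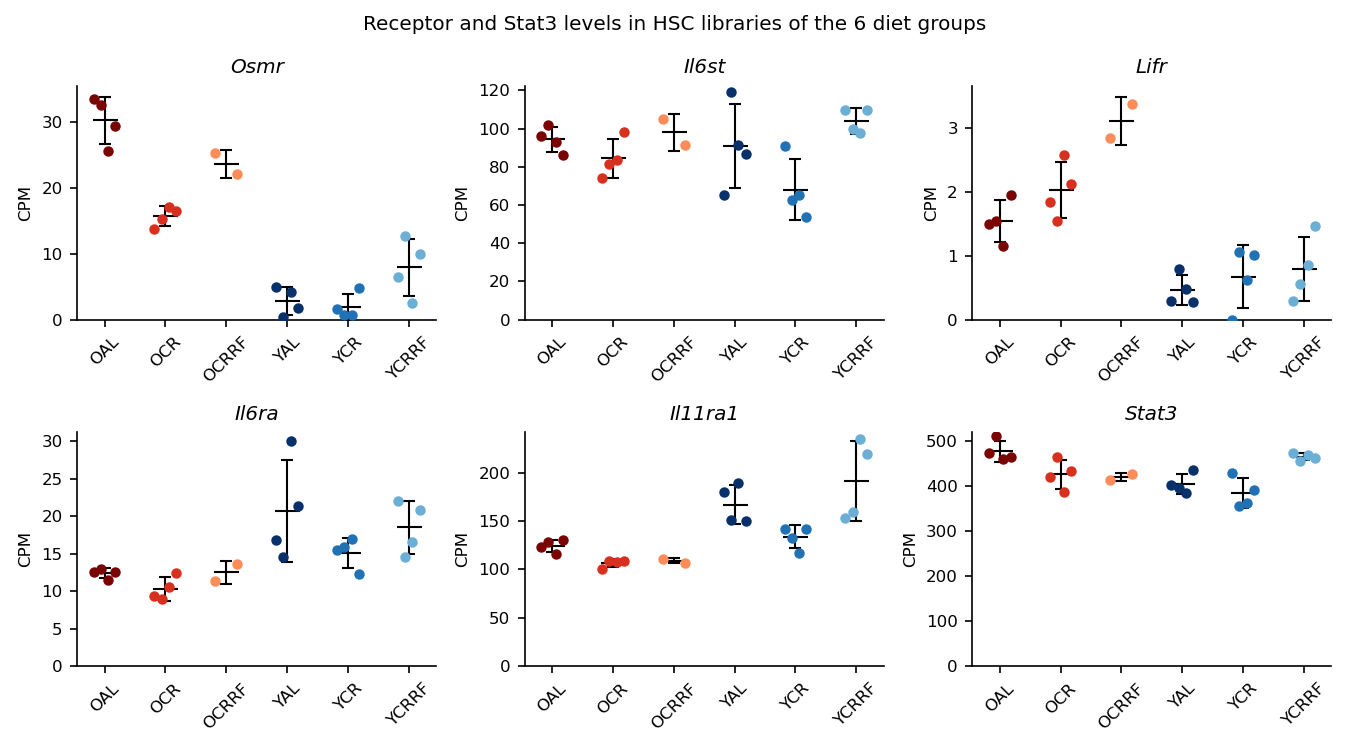
Level of each of the 6 genes in CPM in the 6 diet groups, with a point for each library and the mean ± SD (n = 4, or 2 for OCRRF). For Osmr the OAL libraries (25.6 to 33.5 CPM) lie above the OCR libraries (13.8 to 17.1 CPM), with the OCRRF libraries (25.2 and 22.1 CPM) between them. For Il6st, Il6ra, Il11ra1 and Stat3 the old groups lie closer together. For Lifr the OCRRF libraries (2.84 and 3.37 CPM) lie above those of OAL (1.15 to 1.95 CPM) and OCR (1.55 to 2.58 CPM).

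Refeeding after lifelong CR brought Osmr part of the way back. The OCRRF libraries stood at 25.2 and 22.1 CPM, both above all 4 OCR libraries and below all 4 OAL libraries. Against OCR the log2 change was 0.54 (SE 0.153, 95% interval 0.24 to 0.84, adjusted p = 0.0405 by edgeR), and Osmr was the single one of the 6 genes called, where 3.41% of 32577 genes were called. This call rests on few libraries. Without OCRRF replicate 1 the log2 change was 0.40 (adjusted p = 0.523 by edgeR), without OCRRF replicate 2 it was 0.68 (0.07), without OCR replicate 1 it was 0.45 (0.0902) and without OCR replicate 2 it was 0.53 (0.115), none of them called. The median log2 change of all genes was 0.11 here and moved with the scaling, to 0.04 with DESeq2's size factors and 0.24 with TMM factors from genes over 5 CPM. Relative to that median Osmr changed by 0.43 under all 3 scalings. This sameness is no check of the call, because a change of scaling shifts all genes nearly alike. With DESeq2's size factors the change of Osmr itself, 0.47, was not called (adjusted p = 0.101 by edgeR).

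Against OAL none of the 6 genes was called in OCRRF by edgeR, where 4.14% of 31816 genes were called. Osmr remained lower by log2 -0.37 (SE 0.123, adjusted p = 0.0793 by edgeR), and 4 of the 6 genes had an unadjusted p below 0.05, as did 26.9% of all genes tested. DESeq2, which called 4577 of 23746 genes, called those 4, with Osmr at -0.45 (adjusted p = 0.00976), Lifr at 0.91 (0.0382), Il11ra1 at -0.29 (0.00912) and Stat3 at -0.29 (0.00366). The OCRRF group had 2 libraries and its values are shared by both comparisons. gp130 stood at 105 and 91.4 CPM in OCRRF, 1 above the OAL range and 1 within it.

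Short-term CR in young HSCs was compared in the same way, and none of the 6 genes was called, where 0.364% of 18680 genes were called. Osmr was low and uneven in young HSCs. It stood at 4.96, 0.378, 4.22 and 1.70 CPM in YAL, at 1.57, 0.651, 0.767 and 4.85 CPM in YCR and at 6.44, 12.6, 2.51 and 10.0 CPM in YCRRF. Counts behind these values ran from 11 to 404 reads. Between YCR and YAL the log2 change of Osmr was -0.49 with an SE of 0.838 and an interval from -2.13 to 1.15 (adjusted p = 0.927 by edgeR), which holds both no change and the change seen in old mice. The response of old HSCs minus that of young HSCs was -0.51 (SE 0.765, interval -2.01 to 0.99, adjusted p = 0.942 by edgeR), and no member was called in this interaction, where 0.0318% of 28328 genes were called. A difference between the ages was therefore not detectable at this spread. Of the other 5 genes, Il11ra1 alone had an unadjusted p below 0.05 between YCR and YAL, at 117 to 142 CPM against 150 to 189 CPM (log2 -0.31, SE 0.107, adjusted p = 0.361 by edgeR).

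After refeeding of young mice, 4 of the 6 genes had an unadjusted p below 0.05 against YCR, as did 7.27% of all genes tested, and none was called, where 0.0102% of 19535 genes were called. Osmr was higher in YCRRF by log2 1.97 (SE 0.733, adjusted p = 0.551 by edgeR), with 3 of the 4 YCRRF libraries above all 4 YCR libraries. gp130 was higher by 0.60 (SE 0.165, adjusted p = 0.339), at 97.5 to 110 CPM against 53.7 to 90.8 CPM for Il6st, and DESeq2 alone called it (adjusted p = 0.0485). Il11ra1 was higher by 0.50 (adjusted p = 0.46) and Stat3 by 0.26 (adjusted p = 0.551). Between YCRRF and YAL 0% of 19334 genes were called by edgeR, 714 had an unadjusted p below 0.05 and DESeq2 called 52. Of the 6 genes Stat3 alone reached that unadjusted level (log2 0.21, adjusted p = 0.995).

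**Figure D2:**
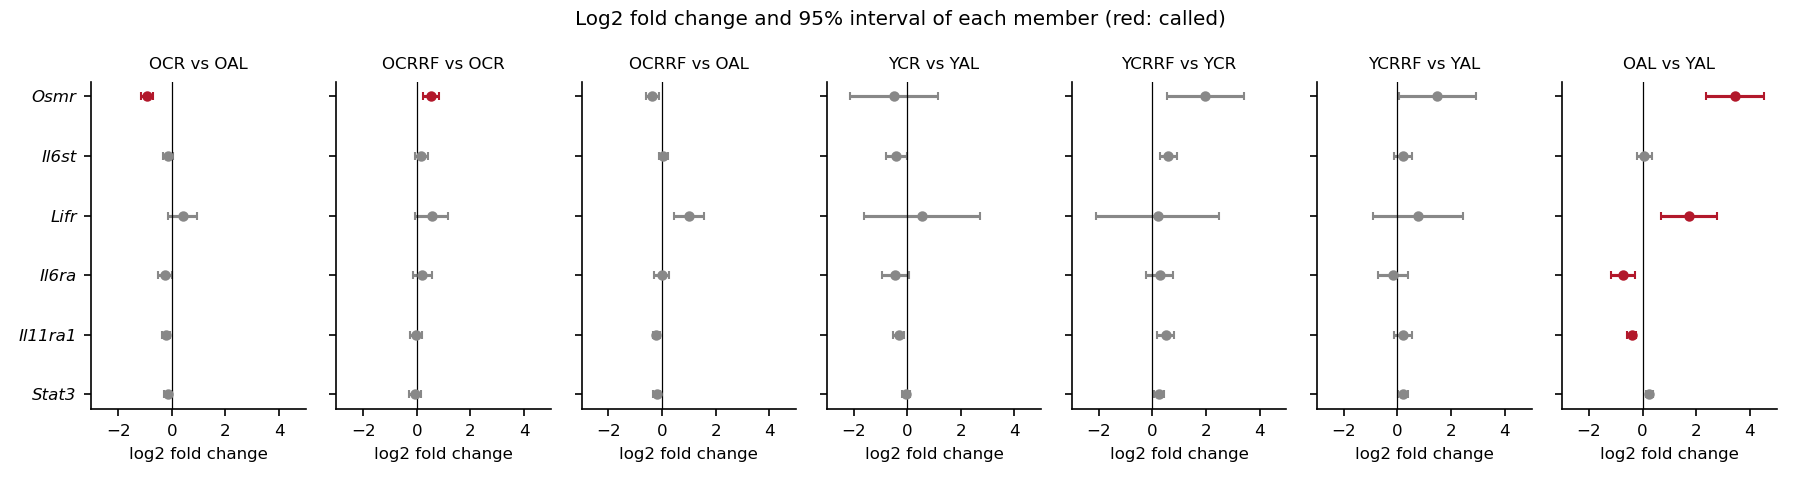
Log2 fold change of each gene in each comparison between a pair of diet groups, with its 95% interval and called genes in red. Osmr lies left of 0 for OCR against OAL (-0.93) and right of 0 for OCRRF against OCR (0.54) and OAL against YAL (3.45). Its intervals in the comparisons among young HSCs are wide.

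Age separated the receptors. Between OAL and YAL 4 of the 6 genes were called, where 14.8% of 23525 genes were called. Osmr was higher in old HSCs by log2 3.45 (SE 0.547, interval 2.38 to 4.52, fold 10.9, adjusted p = 0.00347 by edgeR), with every OAL library (25.6 CPM or more) above every YAL library (4.96 CPM or less). Il11ra1, the interleukin-11 receptor, was lower in old HSCs, at 116 to 131 CPM against 150 to 189 CPM (log2 -0.41, SE 0.0891, adjusted p = 0.0125). Both were called in all 13 alternatives. Il6ra was lower too, at 11.5 to 13.0 CPM against 14.5 to 30.1 CPM (log2 -0.73, SE 0.218, adjusted p = 0.0451), and was not called in 9 alternatives, among them those without YAL replicate 3, the library at 30.1 CPM (log2 -0.50, adjusted p = 0.0664), without YAL replicate 4 or without any 1 of the 4 OAL libraries.

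Stat3 was higher in old HSCs by log2 0.25 (SE 0.0613, adjusted p = 0.0207 by edgeR), a fold of 1.19 that lay under the fold threshold. It was called in 4 alternatives, with DESeq2 (0.29), DESeq2's size factors (0.30), TMM factors from genes over 5 CPM (0.36) and without YAL replicate 4 (0.28). gp130 did not pass the test (log2 0.07, interval -0.21 to 0.35, adjusted p = 0.792 for Il6st), at 86.3 to 102 CPM in OAL and 65.5 to 119 CPM in YAL. The ligand-binding chains thus moved in opposite directions with age in these libraries, while no change of the shared chain was detected. The levels of Osmr in the 6 diet groups ran from OAL at 30.2 through OCRRF at 23.6, OCR at 15.7 and YCRRF at 7.9 to YAL at 2.81 and YCR at 1.96 mean CPM. Neighbouring groups in this order down to YCRRF had no library in common range, and the last 3 groups overlapped.

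Lifr was called higher in OAL than in YAL, at 1.15 to 1.95 CPM against 0.274 to 0.787 CPM (log2 1.73, SE 0.528, adjusted p = 0.0486 by edgeR), but its level in old diet libraries was close to that of genes that HSCs are not known to use. Olfactory and vomeronasal receptor genes, which serve smell and are not known to act in HSCs, were summed as a gauge of background reads per kilobase of exon. Their level was 0.0919 to 0.128 CPM per kb in OAL and 0.0202 to 0.0404 CPM per kb in YAL, over 1732 genes with a known length. Lifr per kb was 0.839 to 1.58 times that gauge in OAL, 1.2 to 1.55 times in OCR, 1.34 to 1.44 times in OCRRF, 0.656 to 2.18 times in YAL, 0 to 2.24 times in YCR and 0.804 to 5.35 times in YCRRF. In the transplant libraries, where the gauge was far lower and Lifr held 16 reads or fewer, the ratio ran from 0 to 7.74. In the old diet libraries Lifr was thus at most 1.58 times the background. The call was lost in 9 of 13 alternatives, with no filter (adjusted p = 0.0817 by edgeR), without any 1 of the 4 OAL libraries (0.0918 to 0.155) and without YAL replicate 1, 3 or 4.

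Osmr per kb, by contrast, was 16.6 to 29.2 times the receptor-gene level in OAL, 7.11 to 13 times in OCR and 7.79 to 11.3 times in OCRRF. In YAL it was 0.772 to 17.2 times, in YCR 1.22 to 10.6 times and in YCRRF 2.11 to 32.7 times. In at least 1 young library Osmr was thus at the background, while the YCRRF range reached above that of OAL. In the transplant libraries the ratio ran from 0 to 24.2, with the highest value in GFP_Scramble. The receptor-gene level itself was higher in OCR replicate 3 and in both OCRRF libraries, reaching 0.234 CPM per kb. As levels per kb of exon in OAL, Stat3 (about 50.2 CPM per kb) and Il11ra1 (27.8) were the most abundant of the 6, followed by Il6st (8.51), Osmr (2.5), Il6ra (1.43) and Lifr (0.143).

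**Figure D3:**
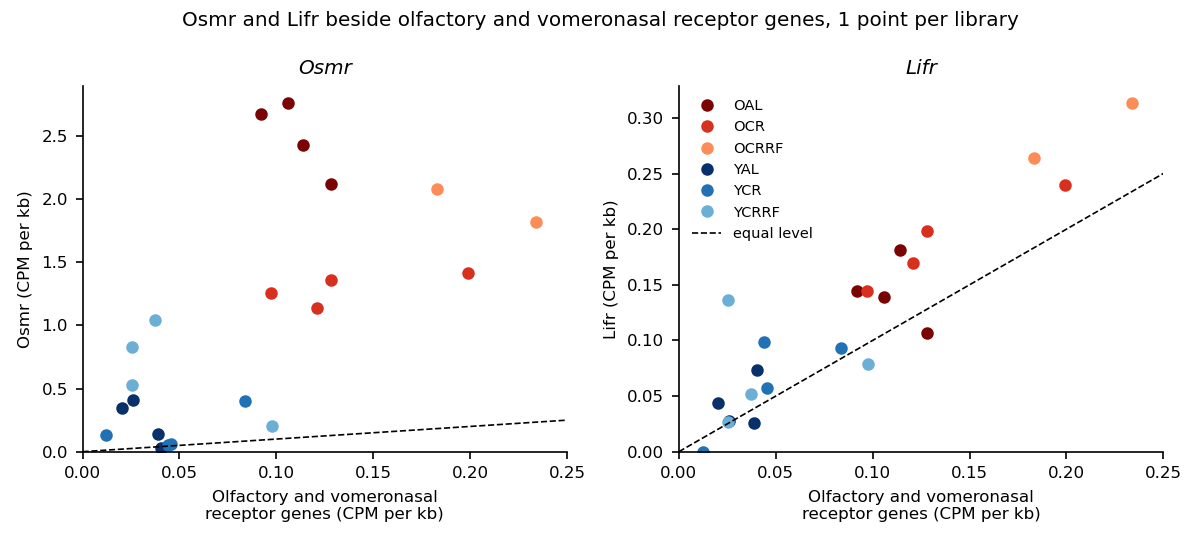
Osmr and Lifr in CPM per kb of exon against the level of olfactory and vomeronasal receptor genes in the same library. Each diet library is a point, the axes are linear and a line shows equal level. Lifr lies along the line in old libraries (0.839 to 1.58 times in OAL), while Osmr of old libraries lies above it (16.6 to 29.2 times in OAL). The Osmr level of several young libraries lies between the line and the old libraries.

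The genes whose log2 CPM followed Osmr most closely over the 22 diet libraries, among 12327 genes averaging 5 CPM or more, were Tdrd9 (Pearson r = 0.92), Gm16548 (0.91), Selp (0.91), Lamp2 (0.91) and Cysltr2 (0.91). Selp encodes P-selectin, an adhesion molecule of platelets and endothelium, and Cysltr2 a cysteinyl leukotriene receptor. These values are a description, since all 22 points share the gap between old and young libraries. Within the 10 old libraries r was 0.83 for Tdrd9, 0.89 for Gm16548, 0.89 for Selp, 0.69 for Lamp2 and 0.93 for Cysltr2, and within the 12 young libraries it was between 0.71 and 0.78. Mean Selp was 448 CPM in OAL, 309 in OCR, 367 in OCRRF and 86.8 in YAL. Among the other members, r with Osmr over the 22 libraries was 0.60 for Stat3, 0.24 for Il6st, -0.38 for Il11ra1 and -0.48 for Il6ra, and within the old libraries it was 0.60, 0.66, 0.87 and 0.72. The sign for Il11ra1 and Il6ra thus differed between the pooled and the old libraries.

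Other genes of the pathway also differed with age, and those named here were picked after their values were seen. Over all genes 14.8% of 23525 were called, a share to set beside the counts below. None of the 6 adaptors tested was called. Of the 9 negative regulators 3 were called between OAL and YAL, Socs3 higher in old HSCs (log2 1.87, adjusted p = 0.00133 by edgeR) and Socs2 (-2.67, adjusted p = 9.06e-05) and Pias3 (-0.46) lower. Of the 14 STAT3 targets tested Bcl6 (2.16) and Bcl3 (0.65) were higher and Vegfa (-1.44) and Icam1 (-0.56) lower, and the list median of 0.09 was close to the 0.05 of all genes. Ebi3, a subunit of interleukin-27, was the 1 ligand called of 9 tested (-2.34), Csf3r, the G-CSF receptor, rose (0.52) and Il12rb2 fell (-1.82) among 6 other receptors tested, and Jak3 (0.37) and Stat2 (-0.35) were called among 10 kinases and STATs. Markers of other cells differed between OAL and YAL as well. The T and NK cell sum was 49.5 to 60.3 CPM in OAL and 10.3 to 21.6 CPM in YAL (2 of 4 tested called higher), the megakaryocyte sum 1076 to 1390 against 618 to 711 CPM (4 of 7 higher), the stromal sum 35.8 to 38.9 against 17.4 to 29.4 CPM (2 of 7 higher) and the endothelial sum 393 to 431 against 449 to 489 CPM (0 of 7 called). The erythroid sum was 1484 to 1825 against 1616 to 1851 CPM (4 of 10 called, all lower, list median -0.39), the granulocyte and monocyte sum 653 to 796 against 575 to 1024 CPM (3 of 10 lower and 1 higher, median -2.09) and the HSC marker sum 4190 to 4751 against 4500 to 4867 CPM (4 of 12 called, all lower). Their part in the age difference of Osmr was not tested.

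Around the receptors, the pathway was read from lists of its ligands, other receptors, kinases, adaptors, negative regulators and known STAT3 targets. Between OCR and OAL, 3 of the 9 negative regulators were called, all lower in OCR, with a list median log2 of -0.16 against 0.02 over all genes. Over all genes 5.57% were called. Socs2, a feedback inhibitor of growth hormone and cytokine signalling, fell by 1.37 on the log2 scale (adjusted p = 2.78e-05 by edgeR), Cish, a related inhibitor downstream of STAT5, fell by 0.97 (adjusted p = 0.00119) and Socs3, the inhibitor that binds gp130, fell by 0.79 (adjusted p = 0.0013). Of the 14 STAT3 targets tested, 5 were called lower and 2 higher, with a list median of -0.28. The leading ones were Cebpb, a transcription factor of myeloid and emergency granulopoiesis (log2 -0.97, adjusted p = 1.92e-07), Junb, an AP-1 factor (-0.60, adjusted p = 0.000862), and Bcl3, an NF-kB cofactor (-0.54, adjusted p = 0.00108). The others, named after their values were seen, were Pim1 (-0.47) and Il4ra (-0.39) among the lower and Vegfa (0.55) and Ccnd1 (0.34) as the 2 that rose. None of the 9 ligands tested, 10 Janus kinases and other STATs, or 6 adaptors was called. Of the other receptors of this type, 1 of 7 tested was called, Il12rb2, an interleukin-12 receptor chain (log2 0.72, adjusted p = 0.0211).

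After refeeding of old mice the negative regulators Socs2 and Cish rose against OCR (log2 2.51, adjusted p = 3.38e-10, and 0.82, adjusted p = 0.000433, by edgeR), 2 of 9 called, and the list median was -0.17 against 0.11 over all genes. Over all genes 3.41% were called. Of the 14 STAT3 targets tested, 2 rose and 2 fell, with the median of the list at 0.11, equal to that over all genes. Bcl6, a transcriptional repressor, fell by 1.51 on the log2 scale (adjusted p = 5.23e-07), Ccnd1, the cell cycle regulator cyclin D1, fell by 0.85 (adjusted p = 0.000112) and Cebpb rose by 0.64 (adjusted p = 0.00584), as did Junb by 0.52. Of the 6 adaptors, Grb2, which links receptors to the MAPK arm, fell by 0.56 (adjusted p = 0.00623), and no ligand, other receptor, Janus kinase or STAT was called. Socs2 and Cish were the only genes of these pathway lists called between YCR and YAL, both lower (log2 -2.02, adjusted p = 0.0033, and -1.15, adjusted p = 0.0101). Over all genes 0.364% were called between YCR and YAL. The comparisons of OCR with OAL and of OCRRF with OCR share the OCR libraries, which are not part of YCR against YAL. Both inhibitors are known targets of STAT5 downstream of growth hormone and thrombopoietin as well as of other cytokines.

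Between OCR and OAL, 4 of the 12 HSC markers were called, all lower, led by Ly6a (Sca-1, log2 -0.47, adjusted p = 0.000404 by edgeR), Procr (EPCR, -0.46, adjusted p = 0.000424) and Fgd5 (-0.50, adjusted p = 0.000669). Over all genes 5.57% were called in this comparison. All 12 HSC markers were detected in every diet group. Markers of other cells were summed in each library. The endothelial sum was 393 to 431 CPM in OAL and 306 to 364 CPM in OCR, the T and NK cell sum 49.5 to 60.3 and 28 to 36.8 CPM, and the megakaryocyte sum 1076 to 1390 and 809 to 1059 CPM. Of the 6 T and NK cell markers tested Klrb1c alone was called (log2 -0.95), while the other 5 had values above 0 that were not called (Cd3e 0.27, Cd3d 0.73, Cd3g 0.38, Cd4 0.58 and Cd8a 0.71), and the list median was 0.48. Of the 7 megakaryocyte markers tested Itgb3 alone was called (-0.82), Vwf was at -0.40, and the other 5 were above 0 (Pf4 0.56, Ppbp 0.51 and Itga2b 0.26 among them), with a list median of 0.11. Of the 7 endothelial markers Emcn alone was called (-0.83), 4 were below 0 and 3 above, and the list median was -0.23. In OCRRF the endothelial sum was 366 to 415 CPM and the T and NK cell sum 46.8 to 59.8 CPM, both above the OCR range, while the megakaryocyte sum of 1039 to 1189 CPM overlapped it. Stromal markers, of cells known to express Osmr, summed to 35.8 to 38.9 CPM in OAL and 34.4 to 49.3 CPM in OCR and 0 of 7 tested were called. The lists of erythroid (3 of 10, led by Hbb-bs at -2.22), granulocyte and monocyte (2 of 10, Prtn3 at -0.41 and Itgam at 0.99) and B and plasma cell markers (1 of 7, Jchain at -5.03) also held called genes. Of all these markers Ncr1 in YAL and Gp6 in YCRRF were at 0 in every library of a diet group and no other was. The part of such cells in the Osmr difference was not tested.

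Between OCRRF and OCR 3.41% of 32577 genes were called, and with 2 OCRRF libraries these calls rest on few libraries. The called markers of HSCs were Kit (log2 -0.49) and Ly6a (0.46), 2 of 12. Those of other cells were 4 of 7 megakaryocyte markers, of which Pf4 (-1.06), Gp9 (-0.58) and Itga2b (-0.47) fell and Vwf (0.51) rose, with a list median of -0.47, 4 of 10 erythroid markers, led by Hbb-bs (1.56), Hba-a1 (1.66) and Epor (-0.82), 1 of 7 T and NK cell markers (Klrb1c at 0.73), 1 of 7 endothelial markers (Emcn at 0.57), 0 of 10 granulocyte and monocyte markers and 0 of 8 stromal markers.

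The knockdown libraries asked whether the receptors respond when Kdr, the VEGF receptor 2, and Bmpr1a, a BMP receptor, are lowered in transplanted aged HSCs. Kdr itself was at 6.04 and 6.07 CPM in GFP_Scramble and at 1.93 to 3.28 CPM in GFP_Kdr, without overlap (log2 -1.35, SE 0.251, adjusted p = 0.247 by edgeR). In the double knockdown Kdr was at 3.97 and 4.62 CPM in the scramble and at 0.555 to 1.6 CPM in the knockdown (log2 -1.86, adjusted p = 0.272). DESeq2 called Kdr in both (adjusted p = 0.00346 and 0.00569). Bmpr1a was at 5.21 and 4.43 CPM in Double_Scramble and at 4.44, 0.656, 2.22 and 0.595 CPM in Double_KdrBmpr, so that 1 shRNA1 library overlapped the scramble (log2 -1.29, adjusted p = 0.602 by edgeR). A label of knockdown therefore goes with lower Kdr in every library but not with lower Bmpr1a in every library.

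Of the 6 genes 5 could be tested in each knockdown and none was called. In GFP_Kdr against GFP_Scramble 0.0149% of 20098 genes were called by edgeR, 1789 had an unadjusted p below 0.05 and DESeq2 called 261, none of them a member. In Double_KdrBmpr against Double_Scramble 0.00498% of 20072 genes were called, 1977 had an unadjusted p below 0.05 and DESeq2 called 332, again no member. gp130 was at 51.2 and 67.5 CPM in GFP_Scramble and 53.0 to 61.7 CPM in GFP_Kdr (log2 -0.05, interval -0.28 to 0.19, adjusted p = 0.932 by edgeR for Il6st). In the double knockdown Il6st was at 57.3 and 60.6 CPM in the scramble and at 41.4 to 54.8 CPM in the knockdown, without overlap (log2 -0.30, SE 0.115, adjusted p = 0.455), the single one of the 5 with an unadjusted p below 0.05 there.

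Stat3 was at 391 and 383 CPM in GFP_Scramble and 388 to 472 CPM in GFP_Kdr (log2 0.18, adjusted p = 0.581 by edgeR), and at 357 CPM in both Double_Scramble libraries and 363 to 427 CPM in Double_KdrBmpr (log2 0.14, adjusted p = 0.586). Il6ra had log2 changes of -0.43 (adjusted p = 0.605) and -0.41 (adjusted p = 0.65), at 7.01 and 7.43 CPM against 4.0 to 6.68 CPM and at 6.76 and 8.02 CPM against 4.37 to 7.6 CPM. Il11ra1 had log2 changes of 0.02 (adjusted p = 0.974) and -0.22 (adjusted p = 0.563). With 2 scramble libraries in each arm these intervals do not show that the genes were the same.

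**Figure D4:**
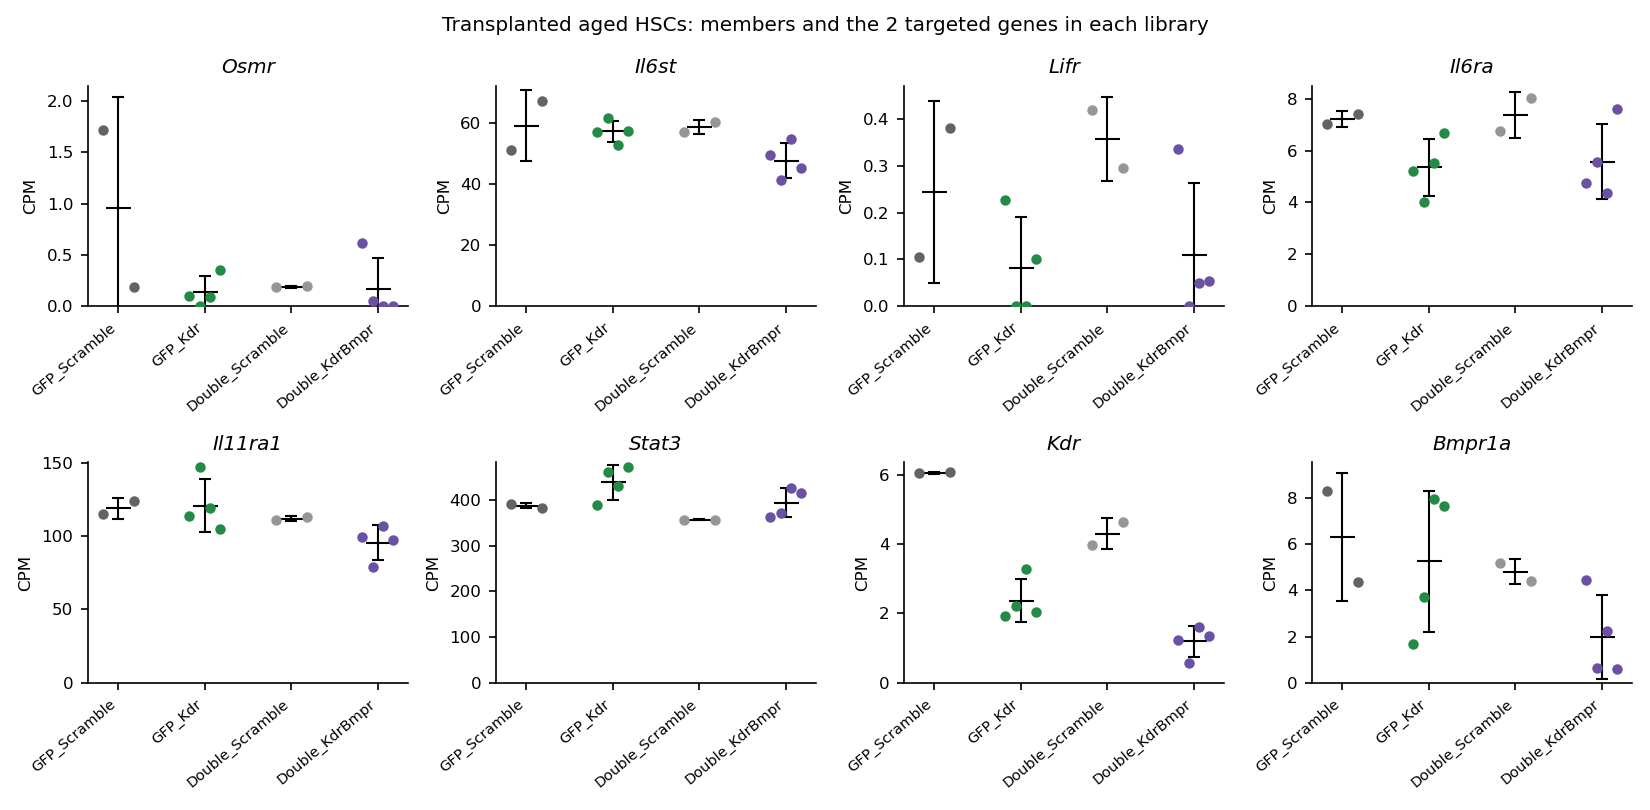
Level of the 6 genes, Kdr and Bmpr1a in CPM in the 4 transplant groups, with a point for each library and the mean ± SD (n = 2 for scrambles and 4 for knockdowns). Kdr of both knockdowns lies below its scramble (1.93 to 3.28 against 6.04 and 6.07 CPM in the GFP arm), and Osmr lies at or below 1.72 CPM in every library.

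Osmr was nearly absent from transplanted HSCs. The 2 GFP_Scramble libraries held 65 and 8 reads (1.72 and 0.191 CPM), the GFP_Kdr libraries 4, 0, 4 and 14 reads, the Double_Scramble libraries 7 and 8 reads and the Double_KdrBmpr libraries 22, 2, 0 and 0 reads. A library with 0 reads allows up to 3 reads by counting error alone. The fitted log2 change of Osmr in GFP_Kdr was -2.79 (SE 1.13, adjusted p = 0.534 by edgeR) and rests on the 65 reads of GFP_Scramble replicate 1. Leaving out 1 library at a time gave values from -3.64 to -0.48. In the double knockdown Osmr did not pass the filter on low counts. Lifr held 0 to 16 reads in these libraries, passed the filter in the double knockdown alone (log2 -1.69, SE 1.18, adjusted p = 0.696) and did not pass it in GFP_Kdr. Set beside the untransplanted aged HSCs of OAL at 25.6 to 33.5 CPM, the transplanted aged HSCs had 0 to 1.72 CPM of Osmr. The transplant, the sort gate, the library kit and the sequencer cannot be told apart as sources of that gap. The test of whether the double knockdown acted differently from the single one called 0% of 21250 genes by edgeR (760 at an unadjusted p below 0.05, 3 by DESeq2) and no member.

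None of the pathway lists held a called gene in either knockdown by edgeR. DESeq2 called no ligand, adaptor or negative regulator in either. It called 1 of 5 other receptors, 1 of 10 Janus kinases and STATs and 1 of 14 STAT3 targets tested in GFP_Kdr, and 1 of 6 other receptors in the double knockdown.

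Chromatin at the 6 genes was read from spans of the gene and 10 kb before it. The ATAC files held 57 peaks there, all of which were tested between OCR and OCRRF with edgeR at an adjusted p below 0.05, a fold above 1.5 and a mean log2 CPM above 1.5. None was called, where 0.215% of 123372 peaks were called. Of the 57 peaks 4 had an unadjusted p below 0.05, against 11.7% of all peaks tested, and DESeq2 called none. The median log2 of OCR over OCRRF was 0.017 for the 57 peaks and 0.006 for all. Library totals were 15721335 to 19558148.

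The peak over the Osmr start (chr15:6873189-6875159) was at 26.6, 25.5, 27.3 and 30.7 CPM in OCR and 31.7 and 29.8 CPM in OCRRF (log2 -0.16, SE 0.0925, adjusted p = 0.509 by edgeR). The upstream Osmr peak (chr15:6881853-6882686), whose centre is printed above, was at 6.28, 6.92, 7.93 and 6.42 CPM in OCR and 8.9 and 11.3 CPM in OCRRF. Both OCRRF libraries were above all 4 OCR libraries (log2 -0.55, SE 0.167), but the difference was not called (adjusted p = 0.124 by edgeR), and it kept its direction when 1 library was left out, with log2 values from -0.71 to -0.37. The mean accessibility of the start peak of Osmr was at the 94th percentile of all peaks and that of the upstream peak at the 76.7th. ATAC of OAL was not analysed here.

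In OCR the promoter of Osmr carried an H3K4me3 signal of 22.9 and 21 (scaled by the authors to equal read number, replicates 1 and 2), against medians of 10.2 and 9.64 over 31552 promoters. H3K4me3 marks starts of active genes and H3K27me3 marks Polycomb repression. Its H3K27me3 signal of 1.02 and 1.42 was at the 79.9th and 84.2nd percentile. The Lifr promoter printed above carried H3K4me3 of 18.7 and 18 together with H3K27me3 of 4.3 and 4.21, at the 93.7th and 93.9th percentile. The second Lifr start had H3K4me3 of 0.618 and 0.722 and H3K27me3 of 3.21 and 3.26. By contrast the promoter of Stat3 had H3K4me3 of 47.8 and 44.6, at the 98.2nd and 97.5th percentile, and H3K27me3 of 0.0239 and 0.0694. Il6st had H3K4me3 of 40.2 and 36.3, Il6ra 15 and 15.4, and Il11ra1 22.7 and 21.5 at its upstream start, with H3K27me3 between 0.0928 and 0.315 at these 3 promoters. The order of H3K27me3 among the 6 genes, with Lifr highest and Osmr next, is a description of 2 libraries of 1 condition.

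**Figure D5:**
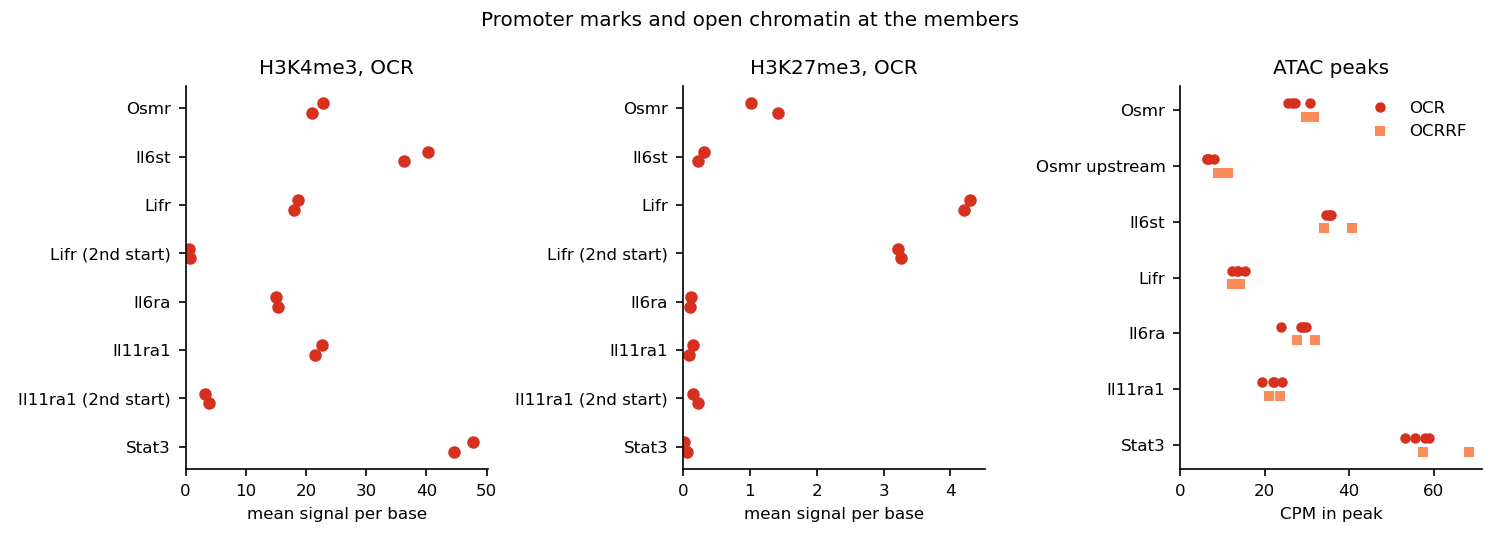
H3K4me3 and H3K27me3 signal at the promoters of the 6 genes in the 2 OCR libraries and ATAC CPM of their start peaks in OCR (4 libraries) and OCRRF (2 libraries), with a point for each library. H3K27me3 is highest at Lifr (4.3 and 4.21) and next at Osmr (1.02 and 1.42), and the ATAC points of OCR and OCRRF lie close together.

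PU.1, a transcription factor of myeloid and stem cells, had 13 peaks at the 6 genes in the 6 libraries, at 3 loci of 2 genes, out of 2262 to 5464 peaks a library. P1, before Lifr, was called in all 6 libraries, with a fold enrichment of 13.3 and 17.6 in OAL, 17.6 and 17.7 in OCR and 15.7 and 11.7 in OCRRF. P2, in the Lifr intron, was called in both OAL libraries (9.27 and 7.15) and both OCR libraries (9.14 and 7.9) and in neither OCRRF library. The OCRRF libraries held the fewest peaks in all, 2817 and 2262, and no test of binding strength was made. P3, in the Il6ra intron, was called in replicate 1 of each group (5.7 in OAL, 9.55 in OCR and 6.83 in OCRRF) and in no replicate 2. The labels mark the replicate 2 libraries as batch 1 without saying what the batch is, and these libraries held fewer peaks in each group, so replicate, batch and peak number cannot be told apart here. No PU.1 peak lay at Osmr, Il6st, Il11ra1 or Stat3 in any of the 6 libraries. The share of all genes with a PU.1 peak in a like span was not computed. The spans ran from 56 kb at Il6st to 117 kb at Lifr, so the counts of peaks and genes are a description only.

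Some counts are uncertain by position or sequence. Il6ra (chr3:89864059-89913196, mm10, minus strand) shares 242 exon bases with the antisense gene Gm42809, and since the counting is not stated to use strand their reads cannot be told apart. Stat3 (chr11:100885098-100939540, minus strand) shares 72 exon bases with Stat5a. Il11ra1 (chr4:41699989-41769474, plus strand) shares 8 exon bases with Ccl27a and has a near-identical copy, Il11ra2, so its level is uncertain. Osmr (chr15:6813577-6874969, minus strand), Lifr (chr15:7090614-7197489, plus strand) and Il6st (chr13:112464070-112510086, plus strand) share no exon with another gene.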

How the data were processed

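RNA-seq, ATAC-seq and ChIP-seq files of sorted HSCs were used. For RNA the authors trimmed reads, aligned them to mm10 with STAR, and deposited raw gene counts from featureCounts on GENCODE genes; strand and multimapping settings are not given in the sources used here. ATAC counts were deposited by the authors per peak of 1 merged peak set. Histone signal was deposited per promoter, scaled by the authors to an equal number of reads per library. PU.1 peaks were called by the authors per library with MACS2 and deposited with a score, a fold enrichment at the summit and −log10 p and q values. Tool names without versions are those of the submitters' processing notes.

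Counts were tested with edgeR 4.0.16 in R 4.3.3 (quasi-likelihood F-test, filterByExpr, TMM, Benjamini-Hochberg over all genes or peaks), with only the groups compared in each fit and all 4 groups in an interaction. CPM levels were scaled with TMM over the 22 diet or the 12 transplant libraries. The 95% intervals are the estimate ± the normal quantile times the SE. DESeq2 1.42.0 (Wald test), its size factors, TMM from genes over 5 CPM, no filter, a replicate block, each library left out and each Bmpr1a shRNA alone were alternatives, and for PU.1 a −log10 q of at least 5 and an overlap of 0.5 of the shorter peak. In simulations 200 genes or peaks were changed by 2-fold. The changed genes were drawn from those averaging at least 5 CPM, and the peaks from those with a mean log2 CPM above 1.5. Calls recovered 98.5% for OCR against OAL, 99% for OCRRF against OCR, 96.5% for OCRRF against OAL and 75.5% for OAL against YAL. They recovered 36 to 59.5% for the young comparisons, 82% and 79.5% for the knockdowns and 77% for ATAC. Lifr averaged below 5 CPM in every group, as did Osmr in YAL, YCR and the transplant groups. The shares do not cover genes at such low levels. Gene coordinates and lengths came from a GENCODE annotation of mm10 and start sites and sequences from RefSeq on GRCm38.p6; 54402 of 55376 symbols matched 1 gene. No library column was without a sample.

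All 6 genes were named in every comparison, Kdr and Bmpr1a in the knockdowns, and of each other list at most 3 called genes a comparison, smallest adjusted p first (OCR against OAL, OCRRF against OCR, YCR against YAL and both knockdowns). The 5 genes most like Osmr were taken by Pearson r of log2 CPM with a prior count of 2. The 6 genes and all lists were chosen with earlier results of these data known. Limits of 0 counts cover counting error only. The intervals of the fold changes also include the spread between libraries, since they use the SE of the edgeR fit. The B and plasma cell markers in OCRRF against OCR and in OAL against YAL are not reported here.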

Additional observations from a re-analysis of the deposited data

Results flagged for a closer look

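Among 99 sets of 4 values tested, 5 had 1 library farther from the other 3 than Dixon's 95% critical value for the gap over the range allows, and chance alone flags about 1 set in 20. In the Double_KdrBmpr group 1 of the libraries with Bmpr1a shRNA1 held 22 Osmr reads against 2, 0 and 0 in the others, and the gap in CPM was 0.918 of the range. The same library, replicate 1, held 12 Lifr reads against 0, 2 and 2, and the gap in CPM was 0.839 of the range. Its Bmpr1a level of 4.44 CPM was also the highest of the 4, within the scramble range of 4.43 to 5.21 CPM.

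In ATAC-seq of OCR, a peak in the span of Il11ra1 at -62994 bp from its nearest start was at 2.44 CPM in replicate 3 against 3.43 to 3.56 CPM in the others (0.884 of the range), and one at -44646 bp was at 1.36 CPM in the same library against 2.35 to 2.45 CPM (0.908). These peaks lie over an exon of Cntfr and within Dctn3 as well. A peak in the Il6ra intron at 25546 bp, which holds PU.1 locus P3, was at 6.16 CPM in replicate 4 against 4.04 to 4.19 CPM in the others (0.929). No interaction between the ages or between the knockdowns was called for any of the 6 genes.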

How the results depend on the processing

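The alternatives gave 1140 values for the results of the text, of which 1035 kept direction and side of the threshold, 23 fell below the threshold, 19 passed it anew, 17 counts moved and 46 values changed sign. The count of members called was 0 for OCRRF against OCR with DESeq2's size factors and 0 to 1 with 1 library left out. For OCRRF against OAL it was 4 with DESeq2, 3 with its size factors, 1 with TMM from genes over 5 CPM and 2 with no filter. It was 1 for YCRRF against YCR with DESeq2, and 2 to 4 for OAL against YAL with 1 library left out. The cause was not tested. Values that changed sign, none of them called, were for OCRRF against OCR Il11ra1 at 0.11 and Stat3 at 0.06 with TMM from genes over 5 CPM, and for OCRRF against OAL Il6st at -0.04 with DESeq2 and -0.02 with its size factors and Il6ra at 0.14 with TMM from genes over 5 CPM. With 1 library left out the log2 values ran from -0.09 to 0.05 for Il11ra1 in OCRRF against OCR, from -0.08 to 0.13 for Il6st and -0.14 to 0.10 for Il6ra in OCRRF against OAL, from -0.27 to 0.51 for Lifr in YCRRF against YCR, from -0.30 to 0.07 for Il6ra in YCRRF against YAL, from -0.06 to 0.22 for Il6st in OAL against YAL, and in GFP_Kdr from -0.23 to 0.16 for Il6st, -0.09 to 0.08 for Il11ra1 and -0.66 to 0.27 for Bmpr1a. For the difference between ages they ran from -0.86 to 0.48 for Osmr, -0.51 to 0.19 for Lifr and -0.04 to 0.33 for Il6ra, for that between knockdowns from -0.48 to 3.64 for Osmr, -1.71 to 1.10 for Lifr, -0.16 to 0.16 for Il6ra and -0.09 to 0.00 for Stat3, and for the Lifr promoter ATAC peak from -0.06 to 0.15.

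The replicate numbers did not pair the libraries (30 same-numbered pairs, r from -0.29 to 0.19). With the replicate block the count of members called was 1 for OCRRF against OAL (Osmr at -0.50) and 2 for OAL against YAL, and signs changed for Il6st in OCRRF against OAL (-0.04) and GFP_Kdr (0.02), Lifr in the difference between ages (0.27) and Stat3 in that between knockdowns (0.01). Over all genes the block moved the calls to 3437 for OCRRF against OCR, 2080 for OCRRF against OAL, 7 for YCR against YAL, 1651 for OAL against YAL, 26 for GFP_Kdr and 741 for ATAC. DESeq2 called 2391 genes for OCRRF against OCR, 4577 for OCRRF against OAL, 527 for YCR against YAL, 378 for YCRRF against YCR, 7955 for OAL against YAL and 239 for the difference between ages. No filter gave 2684 for OCRRF against OAL, 368 for YCR against YAL, 275 for YCRRF against YCR, 40 for YCRRF against YAL, 6671 for OAL against YAL, 82 for GFP_Kdr, 19 for the double knockdown and 23 for the difference between ages. Genes called higher and lower were 689 and 822 for OCR against OAL, 226 and 884 for OCRRF against OCR, 528 and 788 for OCRRF against OAL and 1620 and 1866 for OAL against YAL. With TMM from genes over 5 CPM they were 894 and 697, 341 and 575, 754 and 54, and 1870 and 784, and with DESeq2's size factors 849 and 2366 for OCRRF against OAL. Low counts limited Lifr in all libraries and Osmr in young and transplanted HSCs.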
